A study of Mus musculus with 9 samples.

Results

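Cycling mesothelial-marker cells are liver cells that carry transcripts of the mesothelium, the covering layer of the organ, together with transcripts made only around cell division. They were chosen by raw counts of unique molecular identifiers (UMIs, which count each captured transcript once). A cell with at least 200 detected genes was taken when Msln, Upk3b, Upk1b, Lrrn4, Wt1, Gpm6a, Muc16, Nkain4, Rspo1 and Bnc1 summed to at least 5 UMIs and Mki67, Top2a, Cenpe, Cenpf, Kif11 and Nusap1 summed to at least 5 UMIs. The choice gave 108 cells, out of 524 that passed the mesothelial gate, 4617 cells with at least 200 genes in the matrix labelled CluKO and 47781 barcodes in the 4 matrices of the study. The remaining 416 mesothelial-gated cells held 0 to 4 cycling UMIs and are called non-cycling below.

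The study profiled single liver cells of C57BL/6J mice aged 6 to 8 weeks with the Singleron GEXSCOPE microwell system, to ask how clusterin and its receptor LRP2 bear on liver scarring. Mice labelled CluKO, the genotype named for clusterin, received recombinant human clusterin while carbon tetrachloride (CCl4), a toxin that scars the liver, was injected, and the labels give no duration for them. The remaining 3 samples came from wild-type mice after 0, 2 or 4 weeks of CCl4, and their matrices, whose rows could not be matched to gene names, were not analysed here. The design text speaks of 3 CluKO mice whose liver cells were pooled, the labels list 6 CluKO samples, and 1 matrix holds them all without sample names. It was therefore treated as 1 pooled sample: no replicates could be compared, no test was run, and every interval below is a 95% interval that covers counting error only. Clu itself was counted in these cells, at 1082 CPM (UMIs of the gene per 1000000 UMIs of the cell group, 1026 to 1140) in the cycling cells, although the label names a knockout. Where the gene was deleted is not stated in the sources, so these counts do not check the genotype, and the matrix is named by its label only.

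Mesothelial cells form a thin epithelium-like sheet that makes keratins, mesothelin and uroplakins, yet also collagens and other mesenchymal genes. The sheet of an uninjured liver divides rarely, and its cells can divide and take on fibroblast features after injury. To divide, a cell first loads MCM helicases on its origins and copies its DNA in S phase with PCNA and the polymerases. Cyclin B with CDK1 then drives it into mitosis, and CDC20 with the anaphase-promoting complex ends it.

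The defining markers of both labels were counted in the cells. Msln, mesothelin, was counted in 88.9% of the cycling cells, Upk3b, a uroplakin, in 97.2%, and Wt1, a transcription factor of the mesothelium, in 87.0%. Mki67, the Ki-67 antigen, was counted in 99.1% and Top2a, the topoisomerase that untangles replicated DNA, in 82.4%. A cycling cell held between 4 and 10 of the 10 mesothelial gate genes, with a median of 9, and a median of 5 of the 6 cycling gate genes. These genes made the choice, so their levels are a description. Wt1 stood at 282 CPM (254 to 313) in cycling and 310 CPM (291 to 331) in non-cycling cells, and Msln at 974 CPM (921 to 1030) and 1321 CPM (1281 to 1362). Msln was uneven among the cycling cells, at 281 CPM in those with at least 2 UMIs of Enpp2 and 1180 CPM in the rest.

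The cycling gate reads raw UMIs, and depth moved with it. Cycling cells held 2518 to 29344 UMIs with a median of 10342, against a median of 6627 in non-cycling cells, and their median number of detected genes was 3431.5 against 2519.5. Cells lay on both sides of the limit without a gap: 5 mesothelial-gated cells held 4 cycling UMIs, 2 held 5 and 6 held 6. Just outside, the 16 cells with 3 or 4 cycling UMIs had a median of 30.5 UMIs of a list of 47 other G2 and mitosis genes, and just inside, the 8 cells with 5 or 6 had a median of 28.5. Among the non-cycling cells, 109 held at least 9 UMIs of that list, the lowest value of any cycling cell, and 28 held at least 18 UMIs of the S phase list, the median of the cycling cells. The comparison group therefore holds some cells with cycle transcripts.

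**Figure D1:**
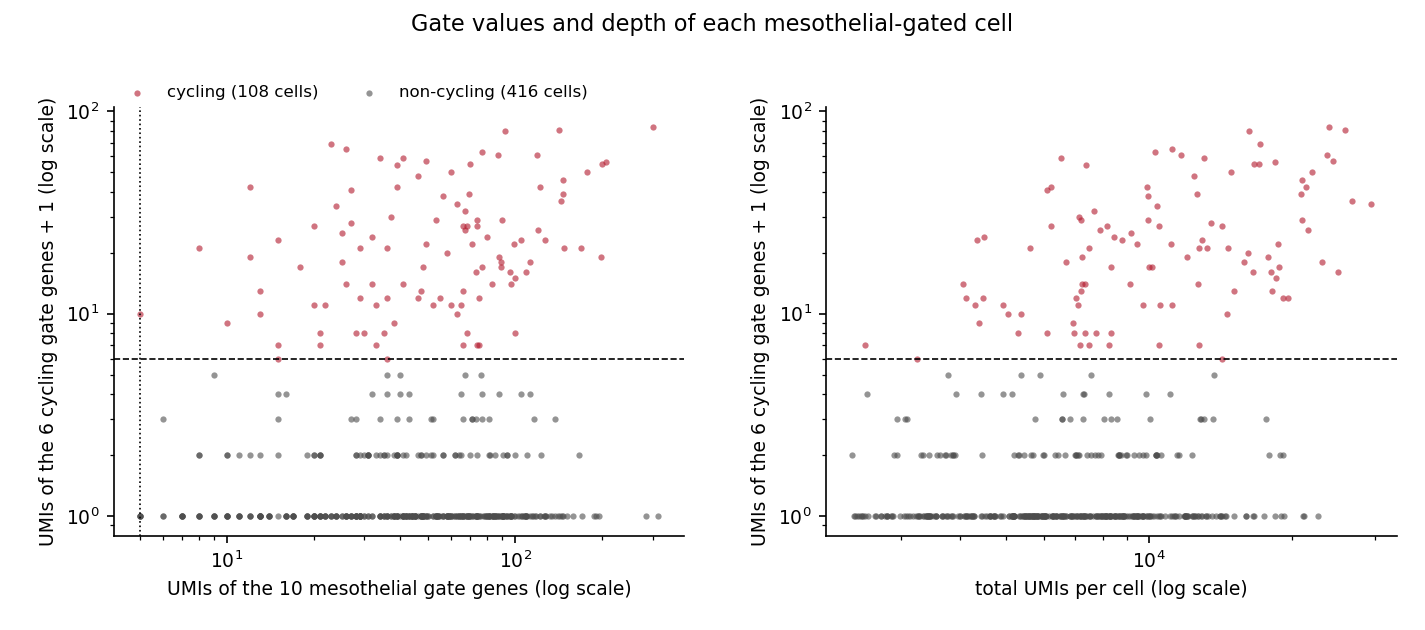
Left, UMIs of the 10 mesothelial gate genes against UMIs of the 6 cycling gate genes plus 1 for each of the 524 mesothelial-gated cells; right, total UMIs of the same cells against the cycling gate UMIs plus 1 (all axes logarithmic). The dotted line marks the mesothelial limit and the dashed line the cycling limit of 5 UMIs; the 108 cycling cells (red) spread upward without a gap and reach further to the right, with a median of 10342 total UMIs against 6627.

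The share of mesothelial-gated cells that were cycling was 20.6% (108 of 524, exact Clopper-Pearson interval 17.2 to 24.3), and it was 22.7% (930 of 4093, 21.4 to 24.0) among the other cells of the matrix. The smallest of the 4617 cells held 2371 UMIs, so each was thinned to 2000 UMIs. With cells thinned and at least 2 cycling UMIs required, the shares were 17.2% (14.04 to 20.7) among mesothelial-gated and 23.6% (22.3 to 24.9) among the other cells. At equal depth the mesothelial share was the lower one, with intervals that do not meet, whereas with raw UMIs the intervals overlap.

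Pan-leukocyte genes were low in the cycling cells, while macrophage, neutrophil, hepatocyte, erythroid, and stellate and fibroblast transcripts were present. None of the marker lists of other cell types stood at a higher level in cycling than in non-cycling cells except the T cell and dendritic lists, whose intervals overlap. The 8 pan-leukocyte markers together stood at 232 CPM (207 to 260) against 282 CPM (264 to 302) in non-cycling cells, and 3 of the 108 cells held at least 10 of these UMIs. In the 930 other cycling cells the same markers stood at 5799 CPM. The 11 neutrophil markers stood at 349 CPM against 581 CPM in non-cycling cells, with at least 3 UMIs in 72 of the 108 cells. The 15 macrophage and monocyte markers stood at 759 CPM against 1038 CPM, with a median of 4 UMIs per cell and Cx3cr1 at 0. At least 3 of these UMIs were in 86 of the 108 cells and at least 10 in 13, with 257 in 1 cycling cell. Of these 15 markers 11 had a lower and 4 a higher CPM in cycling cells. The 4 were Clec4f (74.1 against 34.4 CPM), Vsig4 (50.9 against 30.8 CPM), C1qa (46.3 against 31.7 CPM) and C1qb (91.0 against 90.7 CPM). Among the 11 were Marco (13.9 against 21.3 CPM), Cd68 (36.3 against 45.8 CPM) and Lyz2 (167 against 324 CPM). T cell markers stood at 10.03 CPM (5.34 to 17.1) against 8.51 CPM (5.56 to 12.5) with Cd3e, Cd3g and Trbc2 at 0, and B and plasma cell markers at 37.8 CPM with Cd79a and Cd79b at 0. Endothelial markers stood at 37.0 CPM with Tie1, Vwf and Oit3 at 0, and the 12 stellate cell and fibroblast markers at 1078 CPM against 1548 CPM with Lrat, Reln and Rgs5 at 0. Of these 12 markers 9 had a lower and 1 a higher CPM in cycling cells, and 106 of the 108 cells held at least 3 of these UMIs. Cd34 stood at 414 against 403 CPM, Ecm1 at 346 against 541 CPM and Clec3b at 184 against 371 CPM. Cholangiocyte markers, several of them keratins that mesothelium also makes, stood at 2111 CPM against 2155 CPM with Cldn7 at 0. Hepatocyte markers stood at 797 CPM against 1273 CPM with at least 10 UMIs in 42 of the 108 cells, and haemoglobin and other erythroid genes at 5790 CPM against 6366 CPM, with at least 12 UMIs in every cycling cell.

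The start regions of cell cycle genes carry short elements. The CHR element, TTTGAA, and the CCAAT box are known from promoters of mitotic genes, and the E2F elements TTTGGCGC and TTTCCCGC from S phase genes. RefSeq promoter windows of 300 bases (250 before the start, 50 after, GRCm38.p6) were found for 39 of the 47 genes of the G2 and mitosis list and 28 of the 38 of the S phase list. The 5 windows below belong to Prc1, Ube2c, Cdc20, Ccnb1 and Hells. Prc1, Ube2c, Cdc20 and Ccnb1 are among the 10 genes of highest ratio in the cycling cells, ranked with 20 CPM added to each side. Hells is the S phase gene of highest ratio, ranked in the same way, whose window holds an E2F element. The windows run 5′ to 3′ in the direction of the gene, and capitals mark every CHR, CCAAT or E2F match on either strand.
Prc1 (chr7:80294201-80294500, plus strand): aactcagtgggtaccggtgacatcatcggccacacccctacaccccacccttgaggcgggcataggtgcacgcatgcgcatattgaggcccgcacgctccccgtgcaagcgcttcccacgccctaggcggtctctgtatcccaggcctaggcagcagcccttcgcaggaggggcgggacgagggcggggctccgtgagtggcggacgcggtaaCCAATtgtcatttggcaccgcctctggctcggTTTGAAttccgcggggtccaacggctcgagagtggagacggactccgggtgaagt
Ube2c (chr2:164769679-164769978, plus strand): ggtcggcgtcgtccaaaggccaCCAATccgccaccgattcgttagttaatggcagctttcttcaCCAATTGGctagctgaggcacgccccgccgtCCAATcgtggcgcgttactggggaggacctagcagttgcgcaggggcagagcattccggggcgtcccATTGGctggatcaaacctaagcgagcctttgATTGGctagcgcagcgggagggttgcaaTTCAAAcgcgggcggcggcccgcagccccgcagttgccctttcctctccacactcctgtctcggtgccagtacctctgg
Cdc20 (chr4:118437294-118437593, minus strand): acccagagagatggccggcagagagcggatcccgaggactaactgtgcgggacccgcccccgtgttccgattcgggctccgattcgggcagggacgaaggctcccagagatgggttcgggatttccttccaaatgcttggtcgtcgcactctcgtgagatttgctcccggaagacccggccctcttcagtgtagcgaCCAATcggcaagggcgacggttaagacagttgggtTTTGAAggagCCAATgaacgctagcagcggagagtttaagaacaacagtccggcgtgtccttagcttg
Ccnb1 (chr13:100786437-100786736, minus strand): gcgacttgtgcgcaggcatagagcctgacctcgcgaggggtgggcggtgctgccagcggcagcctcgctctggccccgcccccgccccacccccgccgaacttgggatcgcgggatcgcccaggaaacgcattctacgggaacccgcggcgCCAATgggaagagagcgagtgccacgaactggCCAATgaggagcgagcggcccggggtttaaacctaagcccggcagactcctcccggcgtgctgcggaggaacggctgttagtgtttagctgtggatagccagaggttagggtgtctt
Hells (chr19:38930740-38931039, plus strand): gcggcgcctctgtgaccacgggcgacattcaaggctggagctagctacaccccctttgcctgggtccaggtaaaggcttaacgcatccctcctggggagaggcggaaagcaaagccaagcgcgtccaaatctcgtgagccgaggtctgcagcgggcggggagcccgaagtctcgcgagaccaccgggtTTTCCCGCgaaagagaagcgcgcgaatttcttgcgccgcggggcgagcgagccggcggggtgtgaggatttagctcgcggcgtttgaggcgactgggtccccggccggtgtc

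In Prc1 the CHR letters begin 5 bases and the CCAAT box 37 bases before the start. In Cdc20 the CHR letters begin 18 bases before the start between 2 CCAAT boxes, and in Ube2c 29 bases before it, on the opposite strand, downstream of 6 CCAAT boxes, 2 of which overlap on opposite strands. The window of Ccnb1 holds 2 CCAAT boxes and no TTTGAA. CHR letters were in 29 of 42 windows of the G2 and mitosis list (69.0%), in 3 of 33 of the S phase list (9.09%) and in 17.9% of all 32851 windows. At least 2 CCAAT boxes were in 57.1%, 33.3% and 11.7% in the same order. The E2F letters were in 1 window of the G2 and mitosis list (2.38%), in 11 of the S phase list (33.3%) and in 1.56% of all windows. The 8-letter E2F elements and the CHR and CCAAT letters were searched on both strands. A match describes letters, not binding, and its absence says only that these letters are not in the window. Different windows of 1 gene are counted apart.

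Levels were compared as CPM summed over the cells of each group. Of 3881 genes with at least 30 UMIs in both groups together and at least 50 CPM in either, gate genes left out, 314 (8.09%) stood at least 2-fold higher in the cycling cells and 110 (2.83%) at least 2-fold lower. The lower count was 207 with cells thinned to 2000 UMIs, 203 in cells with at least 2 Enpp2 UMIs and 174 against comparison cells without those high in S phase or mitosis UMIs. Since the cells were split on cycle genes, these differences describe the split. Of the 3881 genes, 620 reached 50 CPM only in the cycling cells and 342 only in the non-cycling cells. The direction of these genes was fixed. Of the 314, 121 were on a list of cell cycle genes. Ratios of a list are given as the median log2 ratio with 20 CPM added to each side, which understates the change of low genes. Over all genes tested this median was 0.05. Genes are ranked by the same log2 ratio, while their fold values are plain ratios.

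Genes of G2 and mitosis stood furthest apart among the lists. The cycling gate holds mostly genes of G2 and mitosis and no gene of the S phase list, so the split favoured this order. All 47 found had a higher CPM in cycling cells, and their sum was 10370 CPM against 1104 CPM. Of the 42 measured, 41 were at least 2-fold higher and 0 at least 2-fold lower, with a median log2 ratio of 2.51, but 37 passed the 50 CPM limit only through the cycling cells and had to differ. Prc1, which bundles the central spindle between the separating chromosomes, was the highest of the ranked genes by log2 ratio with 20 CPM added. By plain ratio Prr11 stood above it, at 82.5 against 1.31 CPM (63.0-fold, 23.9 to 236). A cycling cell held 0 to 32 Prc1 UMIs with a median of 4.5, and a non-cycling cell 0 to 3 with a median of 0. The ranges overlap at the low end, and the sums were 609 CPM (568 to 653) and 13.1 CPM (9.35 to 17.8), a ratio of 46.5 (33.9 to 65.7). Ube2c, the ubiquitin-conjugating enzyme of the anaphase-promoting complex, stood at 472 CPM against 14.4 CPM (32.8-fold, 24.1 to 45.6). Its activator Cdc20 stood at 285 CPM against 16.7 CPM (17.1-fold, 12.7 to 23.4). Cyclin B, encoded by Ccnb1, stood at 264 CPM against 9.16 CPM (28.8-fold, 19.6 to 44.0), with up to 28 UMIs in a cycling and up to 5 in a non-cycling cell. Its kinase partner Cdk1 stood 19.1-fold higher (14.2 to 26.3), the spindle protein Tpx2 17.7-fold and Cdca8, a subunit of the chromosomal passenger complex, 19.0-fold. Pttg1, securin, was the 1 measured member within 2-fold, at 84.1 CPM against 75.6 CPM.

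Genes of replication stood higher by less, under a gate that holds no gene of the S phase list. All 38 genes of the licensing and S phase list had a higher CPM in cycling cells, with sums of 2830 CPM against 743 CPM. The 23 measured were all at least 2-fold higher, with a median log2 ratio of 1.40, and 21 of them passed the limit only through the cycling cells. Pcna, the sliding clamp of the polymerases, stood at 232 CPM (207 to 260) against 72.0 CPM (62.8 to 82.2). Mcm5, a subunit of the replicative helicase, stood at 87.2 CPM against 19.6 CPM (4.44-fold, 3.22 to 6.18). Hells, a chromatin remodeller whose window is printed above, stood at 123 CPM against 23.6 CPM (5.20-fold, 3.92 to 6.98). Clspn, the checkpoint adaptor claspin, had the highest ratio of the list at 67.9 CPM against 2.95 CPM, and Slbp, which binds histone messages, the lowest at 52.5 CPM against 19.3 CPM. Rrm2, the ribonucleotide reductase subunit that supplies deoxynucleotides, stood 18.1-fold higher (13.3 to 25.3) and Tk1, thymidine kinase, 15.8-fold (11.5 to 22.4). Of 13 measured nucleotide synthesis genes 6, Rrm2 among them, passed the limit only through the cycling cells. Ctps and Paics, which serve nucleotide synthesis in general, stood at 77.9 against 73.6 CPM and at 235 against 223 CPM, with intervals of the ratio that include 1.

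The machinery that holds and moves chromosomes went with mitosis. Of 17 measured kinetochore and centromere genes, 15 were at least 2-fold higher (median log2 2.20, 16 passing through the cycling cells only), with Spc25, of the outer kinetochore, at 197 CPM against 9.16 CPM. Of 15 condensin and cohesin genes 10 were at least 2-fold higher and 0 lower (median 1.71, 8 passing through the cycling cells only). Among them the condensin subunit Smc2 stood at 298 CPM against 26.8 CPM, while Stag2 and Nipbl, which serve cohesin in all cells, stood at 73.3 against 95.2 CPM and at 86.4 against 96.6 CPM. Of 23 chromatin and tubulin genes 20 were at least 2-fold higher (median 1.77), with 5 passing through the cycling cells alone. Hmgb2, a chromatin protein, stood at 619 CPM against 63.8 CPM (9.69-fold, 8.28 to 11.4) and Stmn1, the tubulin-binding stathmin, at 697 CPM against 119 CPM (5.87-fold, 5.19 to 6.65). Of 5 measured DNA repair genes 4 were at least 2-fold higher and 4 passed through the cycling cells only.

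Regulators upstream of replication gave a mixed picture. In the list of D cyclins, cyclin-dependent kinases and E2F factors 7 of 20 genes were measured, with a median log2 ratio of 0.31 (-0.31 in cells with at least 2 Enpp2 UMIs). Of the 7, 3 passed the 50 CPM limit only through the cycling cells, Tfdp1 among them, and 1, Ccnd2, only through the non-cycling cells, so these had to differ. Tfdp1, the partner of E2F factors, was 1 gene at least 2-fold higher (88.7 against 42.5 CPM) and Ccnd2, cyclin D2, 1 at least 2-fold lower. Ccnd2 stood at 34.7 CPM (25.3 to 46.5) in cycling and 93.9 CPM (83.4 to 105) in non-cycling cells, 2.71-fold lower (1.97 to 3.79). Its relative Ccnd1 stood at 142 CPM against 111 CPM and Ccnd3 at 116 CPM against 127 CPM. Foxm1, which drives mitotic genes, was below the limit with 57 UMIs (44.0 CPM) against 8 UMIs (2.62 CPM). Of 8 measured inhibitors and exit genes, Cdkn2d and Cdkn2c, inhibitors of the cyclin D kinases, stood 9.56-fold (6.57 to 14.3) and 4.10-fold (2.99 to 5.65) higher, but both passed the limit only through the cycling cells, as did 3 of the 8. Btg2, an antiproliferative gene, stood at 380 CPM against 839 CPM, 2.21-fold lower (2.01 to 2.44). Cdkn1a, the p21 inhibitor, stood at 119 CPM against 186 CPM. Of the 5 measured p53 targets 0 were past 2-fold (median -0.47).

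**Figure D2:**
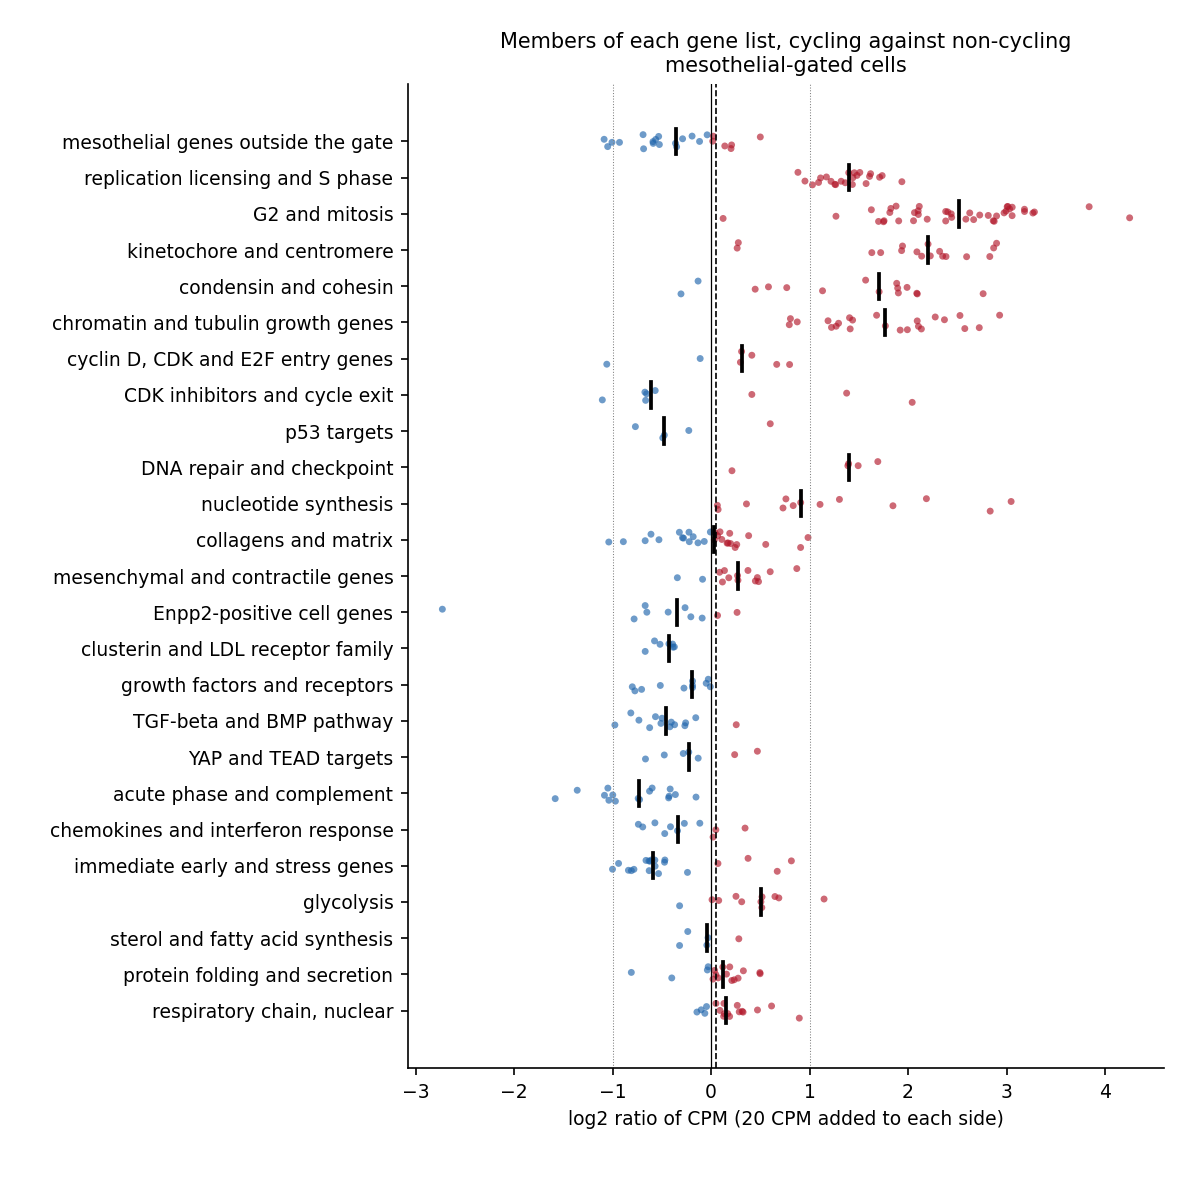
Log2 ratio of CPM (20 CPM added to each side) between cycling and non-cycling mesothelial-gated cells for every measured member of 25 gene lists; each point is a gene, red above 0 and blue below, black bars are list medians, the dashed line is the median of all genes tested (0.05) and dotted lines mark -1 and 1. The G2 and mitosis list lies furthest right with a median of 2.51, and the acute phase and complement list furthest left with a median of -0.73. The cycling gate holds mostly genes of G2 and mitosis, so the split favoured that list.

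Among the 193 genes at least 2-fold higher that were on no cycle list, the 10 of highest ratio were Pclaf, Sprr1a, Diaph3, Aspm, Kpna2, Cep55, Mxd3, Asf1b, Prr11 and Shcbp1. All of them but Sprr1a passed the 50 CPM limit only through the cycling cells, so their direction was fixed. Pclaf, a PCNA-binding protein, stood at 365 CPM against 17.3 CPM (21.0-fold, 15.8 to 28.5). Diaph3, a formin of the cytokinetic furrow (11.5-fold, 8.56 to 15.6), Aspm, a spindle pole protein (30.2-fold), and Cep55, which acts at abscission (20.8-fold), stood higher too. Asf1b, a histone chaperone, gave 155 UMIs against 25, and Kpna2, an importin, 201 UMIs against 35. Sprr1a encodes a cornified-envelope protein of squamous epithelia. It gave 518 CPM (479 to 558) against 67.8 CPM (58.8 to 77.6), but was found in 18.5% of cycling and 7.93% of non-cycling cells, and 1 cycling cell held 182 UMIs, or 27.1% of the total. Without that cell the level was 383 CPM and the ratio 5.66, against 7.64 with it. In cells with 0 or 1 Enpp2 UMIs it stood at 669 CPM against 84.6 CPM, and in those with at least 2 Enpp2 UMIs the cycling cells gave 2 UMIs and the non-cycling cells 0. With cells thinned to 2000 UMIs, Sprr1a was in 10.2% of cycling cells, 5.53% of non-cycling cells and 0.07% of leukocytes.

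Among the 10 genes of lowest ratio were Cxcl13, Ogn, Sugct, C4b, Prg4, Mt2, Gas6, Fgl2 and Tcp11l2. Cxcl13, a B cell chemokine, stood at 20.8 CPM (13.7 to 30.3) against 250 CPM (233 to 269), a 12.02-fold lower level (8.20 to 18.4). Single cells weighed on both sides: 1 cycling cell held 81.5% of the cycling cells' UMIs, and without it the level was 3.90 CPM (64.3-fold lower), while 1 non-cycling cell held 274 UMIs, and without it the non-cycling level was 161 CPM (7.73-fold lower). Ogn, the proteoglycan osteoglycin, stood at 27.8 CPM against 205 CPM (7.39-fold lower, 5.28 to 10.6) with at most 4 UMIs in a cycling and 15 in a non-cycling cell. Prg4, the lubricant lubricin of serosal and joint surfaces, stood at 175 CPM against 553 CPM (3.16-fold lower, 2.74 to 3.64). Gas6, a ligand of TAM receptors, stood at 368 CPM against 1050 CPM (2.85-fold lower, 2.59 to 3.15) and Mt2, a metallothionein, at 269 CPM against 811 CPM (3.01-fold lower, 2.69 to 3.38). Sugct, Fgl2 and Tcp11l2 stood at 25.5 against 120 CPM, 35.5 against 125 CPM and 8.49 against 52.7 CPM. Cxcl13, Ogn, Sugct, Fgl2 and Tcp11l2 passed the 50 CPM limit only through the non-cycling cells, so their direction was fixed.

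Complement and acute-phase genes were lower as a list. All 24 members found had a lower CPM in cycling cells, and their sum was 26239 CPM against 40981 CPM. Of 16 measured, 6 were at least 2-fold lower and 0 higher (median log2 -0.73; -0.45 without cells above the 95th percentile of UMIs), beside 2.83% lower among all genes. Hepatocytes make many of these proteins, and hepatocyte markers stood lower too (797 against 1273 CPM, 11 of 12 with a lower CPM), as did stellate and fibroblast markers (1078 against 1548 CPM); their part in the difference was not tested. C4b, complement component 4B, stood at 169 CPM (147 to 193) against 546 CPM (520 to 572), with 0 to 15 UMIs per cycling cell (median 1) and 0 to 30 per non-cycling cell (median 2). The groups overlap from cell to cell, and the sums differed 3.23-fold (2.80 to 3.74). C3, the central component, stood at 4869 CPM against 10084 CPM (2.07-fold lower, 2.02 to 2.13), and C2, C1ra and Cp, ceruloplasmin, were 2.05-fold to 2.27-fold lower. Saa3, an acute-phase serum amyloid, stood at 17048 CPM against 22734 CPM (1.33-fold lower, 1.31 to 1.35). Of 11 chemokine and interferon genes 0 were past 2-fold (median -0.34), with Cxcl5 at 154 against 117 CPM and Ifitm2 at 1420 against 2382 CPM.

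Of 23 measured mesothelial genes outside the gate, 0 were at least 2-fold higher and 3 lower (median log2 -0.36), beside 8.09% and 2.83% of all genes. The 3 were the proteoglycan Gpc3 (258 against 569 CPM), the IGF-binding protein Igfbp5 (1136 against 2371 CPM) and the adhesion molecule Alcam (333 against 688 CPM). Krt8, a keratin, stood at 1006 CPM against 705 CPM (1.43-fold higher, 1.33 to 1.53), Krt19 at 1499 against 1541 CPM, and Slpi, a protease inhibitor, at 12855 against 18501 CPM. Clu was 1.60-fold lower (1.51 to 1.70), with 10 UMIs in the median cycling and 11 in the median non-cycling cell. In cells with at least 2 Enpp2 UMIs Clu was 1.19-fold lower (1.07 to 1.34), and in the rest 1.78-fold lower (1.66 to 1.92). Lrp2, megalin, stood at 71.0 CPM (57.2 to 87.0) against 98.8 CPM (88.01 to 111), a ratio of 1.39-fold lower (1.10 to 1.78) whose direction turned without cells above the 95th percentile of UMIs (log2 0.08) and in cells with at least 2 Enpp2 UMIs (log2 0.39). Of the 7 measured genes of the clusterin and LDL receptor list 0 were past 2-fold (median -0.43).

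Matrix genes stood near the median of all genes as a list. Of 29 measured collagen and matrix genes 2 were at least 2-fold higher and 1 lower (median log2 0.03). Fn1, fibronectin, stood at 1062 CPM against 527 CPM (2.02-fold, 1.87 to 2.17) and Vcan, the proteoglycan versican, at 89.5 CPM against 38.3 CPM (2.34-fold, 1.79 to 3.05), the latter passing only through the cycling cells. Col14a1, a collagen that binds fibril surfaces, stood at 117 CPM against 262 CPM. In cells with at least 2 Enpp2 UMIs it stood at 74.4 against 73.9 CPM (ratio 1.01, 0.576 to 1.71). In cells with 0 or 1 Enpp2 UMIs it stood at 130 against 309 CPM (2.38-fold lower, 1.97 to 2.88). The fibrillar collagens Col1a1 and Col3a1 stood at 1252 against 1466 CPM and at 2197 against 2493 CPM. Of 14 contractile and mesenchymal genes 0 were past 2-fold (median 0.27), with Tpm2, a tropomyosin, at 231 against 117 CPM and Acta2, smooth muscle actin, at 232 against 146 CPM.

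Counts of the signalling and metabolic lists stand beside 8.09% of all genes higher and 2.83% lower. Of 14 TGF-beta and BMP genes 3 were at least 2-fold lower and 0 higher (median -0.46): Ltbp1, which stores latent TGF-beta in the matrix (44.7 against 107 CPM), the co-receptor Tgfbr3 (40.9 against 87.1 CPM) and the ligand Tgfb3 (30.9 against 64.5 CPM). All 3 passed the 50 CPM limit only through the non-cycling cells, as did 4 of the 14, and so had to differ. Fgf2, a fibroblast growth factor, was 1 of 11 growth factor genes and stood at 28.5 against 64.5 CPM, passing only through the non-cycling cells (median of the list -0.19). Of 20 immediate early and stress genes 3 were at least 2-fold lower and 1 higher (median -0.58). Nr4a1, Fosb and Hspa1a were the lower ones, and Hsph1, a chaperone, the higher at 96.4 against 46.2 CPM. Fosb and Hspa1a passed the limit only through the non-cycling cells and Hsph1 only through the cycling cells, while Nr4a1 passed in both at 170 against 361 CPM. Fos stood at 992 against 1533 CPM. Of 11 glycolysis genes 1 was at least 2-fold higher (median 0.51), the lactate exporter Slc16a3 at 78.7 against 24.5 CPM, which passed only through the cycling cells. Of 7 YAP and TEAD targets, 5 sterol and fatty acid genes and 17 folding and secretion genes 0 were past 2-fold (medians -0.23, -0.04 and 0.12, all of which changed sign in cells with at least 2 Enpp2 UMIs), and of 18 respiratory chain genes 1 was, Cycs, cytochrome c, at 224 against 111 CPM (median 0.15).

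To see how the values changed with the cycling sum, mesothelial-gated cells were set in 5 ranges of cycling UMIs. The ranges of 0, 1 to 4, 5 to 14, 15 to 29 and at least 30 UMIs held 325, 91, 39, 39 and 30 cells with median depths of 6541, 7103, 7331, 10497 and 15561 UMIs. Prc1 stood at 7.60, 32.0, 156, 518 and 1031 CPM in this order, higher in each range than in the last. Mcm5 stood at 13.5, 40.7, 49.1, 112 and 90.4 CPM, where the last 2 intervals overlap. C3 stood at 10827, 7532, 4712, 5185 and 4669 CPM and C4b at 591, 388, 147, 208 and 145 CPM. Most of their difference lay between the range of 0 and that of 5 to 14 UMIs. The part of depth in it was not tested. Btg2 stood at 865, 747, 526, 350 and 303 CPM and Ccnd2 at 101, 68.3, 31.8, 42.1 and 29.4 CPM. Fn1 stood at 464, 744, 1396, 906 and 976 CPM and was highest in the range of 5 to 14. Wt1 stood at 297, 357, 246, 261 and 330 CPM with no order.

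**Figure D3:**
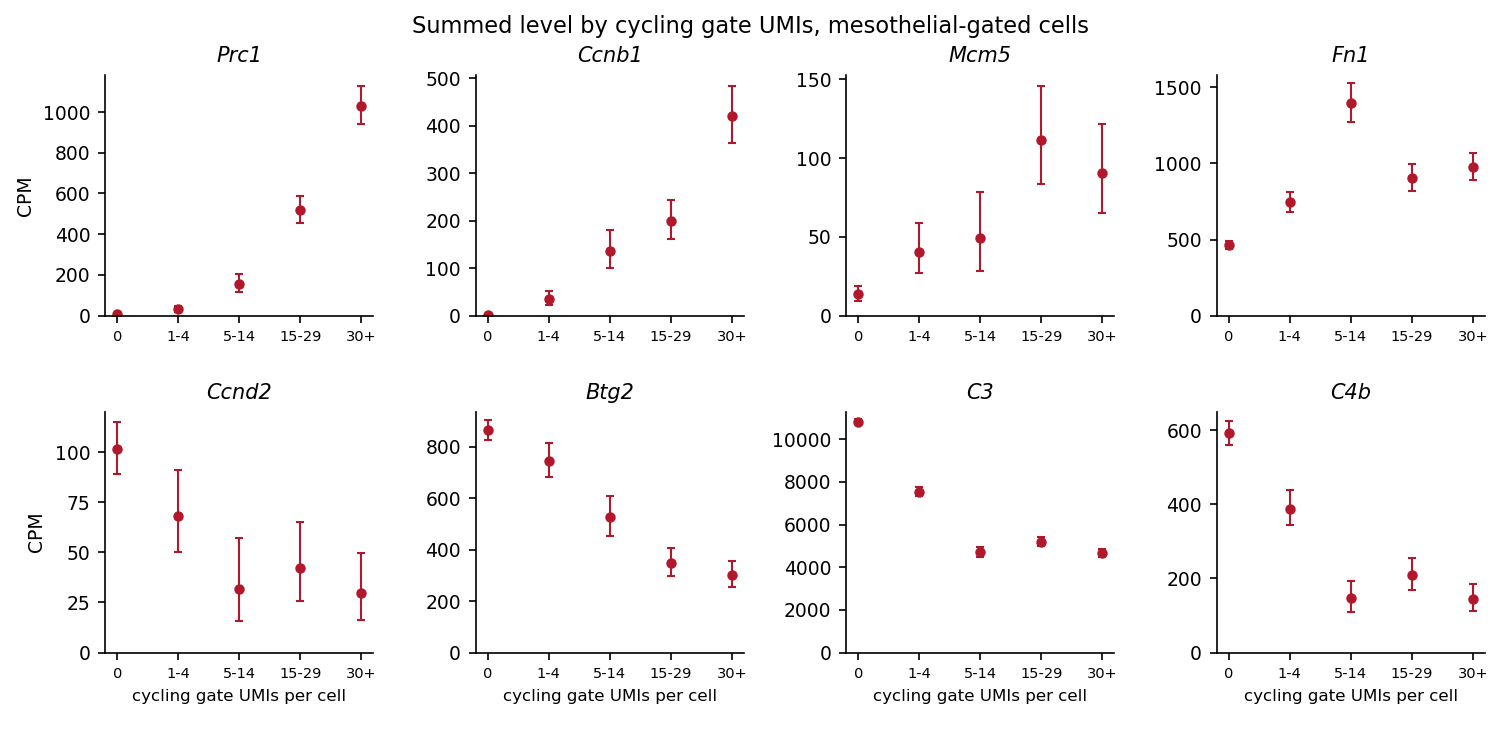
Summed level (CPM) of 8 genes in mesothelial-gated cells grouped by cycling gate UMIs per cell (325, 91, 39, 39 and 30 cells from left to right); points are levels and bars 95% Poisson intervals, which cover counting error only. Prc1 and Ccnb1 are higher in each range than in the last, while C3 and C4b are lower from 5 UMIs on.

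The cells were also placed in the cycle by genes outside the gate. A cycling cell held 0 to 144 UMIs of the S phase list (median 18) and 9 to 448 of the G2 and mitosis list (median 106). The S phase sum was the larger in 16 of 108 cells (14.8%, 8.71 to 22.9), and in 12 cells the sums lay near equality (a difference of at most 0.2 of their total). Among the other 930 cycling cells it was the larger in 160 (17.2%, 14.8 to 19.8), an interval that overlaps the first. With cells thinned to 2000 UMIs it was the larger in 8.33% of the cycling mesothelial-gated cells. The gate itself holds mostly genes of G2 and mitosis, and no gene of the S phase list. In the 16 cells with the larger S phase sum, Ccne1, the cyclin that starts replication, stood at 105 CPM (66.1 to 160) against 15.6 CPM (9.10 to 25.0) in the other 92, and Ccne2 at 182 against 19.3 CPM. Cdc20 stood at 28.8 CPM (10.6 to 62.6) against 335 CPM (301 to 371) and Ccnb1 at 38.4 against 307 CPM. Pcna and Ube2c are members of the sums and followed them, at 599 against 162 CPM and 144 against 535 CPM. Ccne1, Ccne2, Cdc20 and Ccnb1 are members as well, so the split fixed their direction. Outside the sums, Msln stood at 1064 against 957 CPM, C3 at 4837 against 4875 CPM and Clu at 743 CPM (631 to 870) against 1147 CPM (1085 to 1213).

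**Figure D4:**
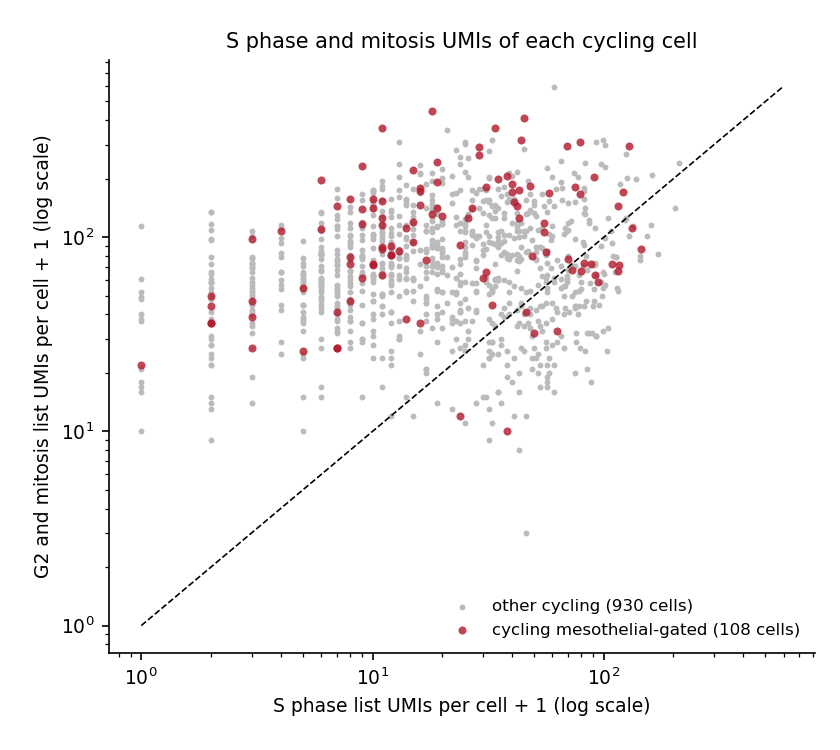
UMIs of the S phase list plus 1 against UMIs of the G2 and mitosis list plus 1 for each of 108 cycling mesothelial-gated cells (red) and 930 other cycling cells (grey), on log axes; the dashed line marks equality. Most red points lie above the line, with 16 of 108 below it.

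Cells were then divided by Enpp2, the gene of autotaxin (a secreted enzyme that makes lysophosphatidic acid), since the cells fall into divisions with and without it. Of 131 mesothelial-gated cells with at least 2 Enpp2 UMIs, 31 were cycling (23.7%, 16.7 to 31.9), and of 393 with 0 or 1, 77 were (19.6%, 15.8 to 23.9). With cells thinned to 2000 UMIs and at least 2 cycling UMIs the shares were 22.1% (15.4 to 30.2) and 15.5% (12.1 to 19.5), so the intervals overlapped in both forms. Among the cycling cells, Msln stood at 281 CPM with Enpp2 and 1180 CPM without, and Wt1 at 355 and 261 CPM. Col1a1 stood at 2758 CPM in the cycling cells with Enpp2 and 807 CPM in those without, and Col3a1 at 5161 and 1320 CPM. Prc1 stood far higher in the cycling than the non-cycling cells of both divisions, at 787 against 24.6 CPM with Enpp2 and 557 against 10.2 CPM without. C3 was 1.67-fold lower (1.56 to 1.78) with Enpp2 and 2.13-fold lower (2.06 to 2.19) without, and C4b 1.67-fold (1.12 to 2.56) and 3.41-fold lower (2.92 to 3.98). In the same order, Gas6 was 1.81-fold (1.41 to 2.33) and 3.01-fold lower (2.71 to 3.35). Btg2 was 1.87-fold and 2.24-fold lower and Igfbp5 1.56-fold and 2.20-fold lower. Past 2-fold in both divisions were Mt2 (3.08-fold and 2.96-fold lower) and Prg4 (2.04-fold and 3.17-fold lower). Fn1 without Enpp2 stood at 1027 against 422 CPM (2.43-fold, 2.23 to 2.66), and with Enpp2 at 1183 against 949 CPM (1.25-fold, 1.09 to 1.43). Vcan with Enpp2 stood at 311 against 107 CPM (2.91-fold, 2.10 to 4.07), and without it at 24.0 against 21.3 CPM. Cxcl13 UMIs were nearly all in cells with Enpp2, where 26 of 27 of the cycling cells' UMIs lay. Lrp2 stood at 128 against 93.6 CPM with Enpp2, where the interval of the ratio (0.886 to 2.11) includes 1, and at 54.0 against 100 CPM without, 1.86-fold lower (1.38 to 2.54). Median depth was 7477 UMIs in cycling and 5524 in non-cycling cells with Enpp2, and 12459 and 7217.5 in those without. Whether these ratios differ between the divisions, and the part of depth in them, was not tested.

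Finally the cycling mesothelial-gated cells were set beside the 930 other cycling cells of the matrix, whose median depth was 7449.5 UMIs and of which 748 held at least 10 pan-leukocyte UMIs. Of 4336 genes tested, 891 (20.5%) were at least 2-fold higher in the mesothelial-gated cells and 647 (14.9%) lower. Of the 4336, 1039 reached 50 CPM only in the mesothelial-gated cells and 797 only in the other cycling cells. The direction of these genes was fixed. In the G2 and mitosis list 3 of 43 measured genes were at least 2-fold higher and 0 lower (median log2 0.08). These were Anln, anillin, which shapes the cleavage furrow (315 CPM, 285 to 347, against 74.3 CPM, 4.23-fold, 3.72 to 4.81), Ect2, an exchange factor that acts there (162 against 56.0 CPM, 2.89-fold, 2.44 to 3.41), and the spindle protein Ckap2 (158 against 65.8 CPM, 2.40-fold, 2.04 to 2.83). In the S phase list 1 of 26 was at least 2-fold lower, the flap endonuclease Fen1 (61.7 against 124 CPM), and 0 were higher (median -0.27). Of 17 kinetochore genes, 15 condensin and cohesin genes and 6 DNA repair genes 0 were past 2-fold.

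The exceptions lay in the tubulin, cyclin D and nucleotide lists. Tubb6 and Tubb2a, beta-tubulin isotypes, stood at 476 against 153 CPM (3.11-fold, 2.82 to 3.43) and at 348 against 106 CPM (3.29-fold, 2.93 to 3.69), while the main isotypes Tubb5 and Tuba1b stood at 1018 against 953 CPM and 1700 against 1556 CPM. H1f0, a linker histone, stood at 717 against 323 CPM, and Hmgb2 2.04-fold lower than in other cycling cells at 619 against 1262 CPM. Ccnd1 stood at 142 CPM in the mesothelial-gated cells (2.68-fold higher, 2.24 to 3.19) and Ccnd3 at 116 against 279 CPM (2.39-fold lower, 2.03 to 2.84). Ctps, CTP synthase, stood at 77.9 against 17.5 CPM (4.46-fold, 3.42 to 5.80), and Mthfd2, a mitochondrial folate enzyme, at 23.9 against 69.1 CPM (2.89-fold lower, 2.01 to 4.30). Ctps passed the 50 CPM limit only through the mesothelial-gated cells and Mthfd2 only through the other cycling cells. Their direction was therefore fixed. Tubb2a, Ctps, Ccnd1 and Ccnd3 lay within 2-fold of their levels in non-cycling mesothelial-gated cells, whereas Tubb6 stood 7.53-fold higher (6.40 to 8.90) there and Anln 13.9-fold (10.8 to 18.3).

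**Figure D5:**
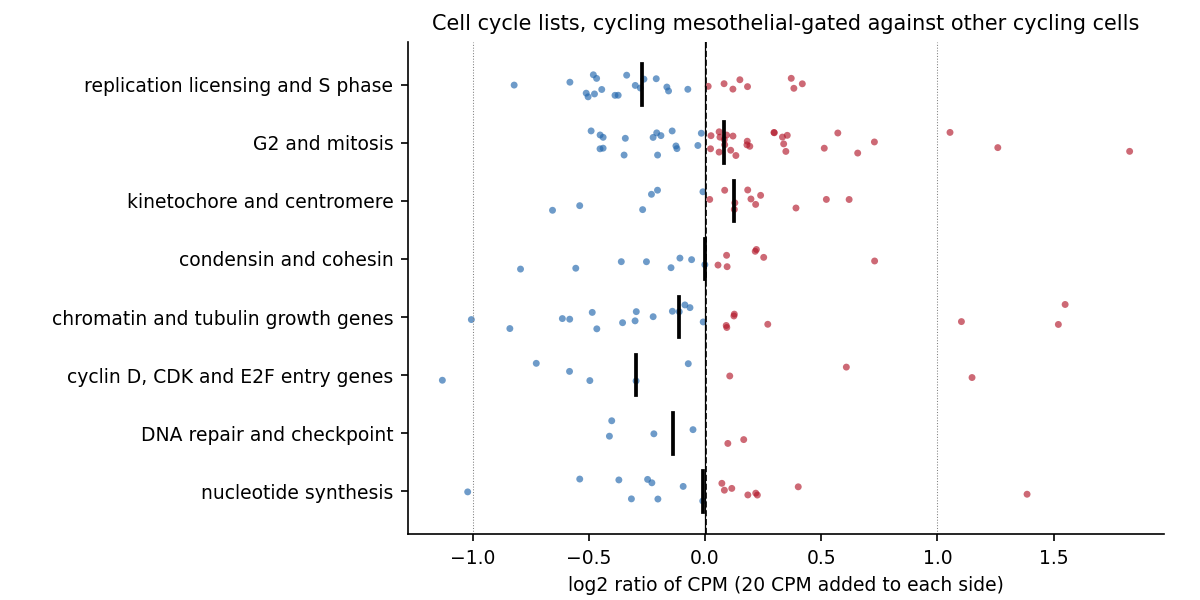
Log2 ratio of CPM (20 CPM added to each side) between cycling mesothelial-gated and other cycling cells for the measured members of 8 cell cycle lists; each point is a gene, red above 0 and blue below, black bars are list medians, the dashed line is the median of all genes tested and dotted lines mark -1 and 1. The lists lie about 0, with medians between -0.30 and 0.13, and Anln, Tubb2a and Tubb6 are among the points furthest right.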

How the data were processed

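Single liver cells were counted as UMIs per gene. The deposited counts are whole-number UMIs per gene and cell made by the authors, 1 matrix pooling the 6 samples labelled CluKO. Per the submitters' processing notes the genome build was GRCm38. The aligner, the counter and the cell calling: not given in the sources used here. Gene symbols came from the deposited gene table (118 on more than 1 row were summed), and 53618 of 53713 identifiers were in the GENCODE annotation. All 4694 barcodes were distinct. Cells with at least 200 genes were kept. No doublet caller was run; leaving out cells with leukocyte UMIs, and the deepest cells, were alternatives.

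UMIs were summed per cell group and given as CPM with exact Poisson intervals, shares with Clopper-Pearson intervals, and ratios with conditional binomial intervals (95%, counting error only; reads of 1 molecule share a UMI). A gene was tested from 30 UMIs in both groups together and 50 CPM in either, and called at a plain 2-fold ratio. List medians and the ranking of genes use an offset of 20 CPM. Thinning to 2000 UMIs used seed 1. Totals were 1296267 UMIs in cycling and 3055205 in non-cycling mesothelial-gated cells. The calculation was tested on simulated data. Tools were Python 3.11.15, numpy 2.4.6, scipy 1.17.1, pandas 2.3.3, matplotlib 3.10.9 and, for TMM scaling as an alternative, edgeR 4.0.16 in R 4.3.3.

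The cells and gene lists were chosen with earlier results of these data known. Named genes are the 10 highest and 10 lowest ratios, the 10 highest outside the cycle lists, and the gate genes, Clu and Lrp2. The 2 highest and 2 lowest measured members of each list are named too. Left out of the rankings were gate, mitochondrial, ribosomal, immunoglobulin, haemoglobin, Y-linked and unnamed genes, Xist, Tsix, Malat1 and Neat1. Hepatocyte, neutrophil, erythroid, and B and plasma cell markers were left out as well. Other genes, among them Pcna, Mcm5, Hells, Stmn1, Saa3 and the collagens, were named after their values were seen. Of 708 list and marker genes 704 were found. Some genes that the rule names are not reported here.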

Additional observations from a re-analysis of the deposited data

How the results depend on the processing

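No paired analysis was possible because the CluKO samples are pooled in 1 matrix without sample names, so no replicate could be left out either. Of the alternative values of the main results 130 stayed close to the reported value and 13 moved. The cycling share was 17.0% with a cycling gate of at least 10 UMIs and 15.5% without cells above the 95th percentile of UMIs; among cells with 0 or 1 Enpp2 UMIs it was 13.3% without those cells and 15.4% with thinning before the gates. Genes at least 2-fold lower numbered 207 with cells thinned after the gates, 575 with no CPM minimum, 203 in cells with at least 2 Enpp2 UMIs and 174 against comparison cells without those high in S phase or mitosis UMIs, against 110. With no CPM minimum 696 were at least 2-fold higher and 4255 differed from other cycling cells; these counts follow from the genes admitted. The S phase share was 8.33% after thinning. The G2 and mitosis median was 3.43 with an offset of 5 CPM, and the acute phase median -0.45 without the deepest cells. In cells with at least 2 Enpp2 UMIs the medians of the cyclin D list (-0.31), the inhibitor list (0.012), the folding list (-0.011), the YAP and TEAD list (0.26), the sterol list (0.28; 0.15 without the deepest cells) and the collagen list (-0.06; also below 0 with a cycling gate of at least 10 UMIs and against comparison cells of matched depth) changed sign, as did Lrp2 (0.39; 0.080 without the deepest cells). The cause was not tested. The comparison without cells high in S phase or mitosis UMIs, CPM without cycle genes in the total, and leaving out the top cycling or top non-cycling cell of a gene were chosen after seeing the data.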
